A study of Homo sapiens with 8 samples.

Results

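The genes described are the subunits of the hypoxia-inducible factors (HIF) and targets of these factors that lie outside glycolysis, in MDA-MB-231 cells exposed to carboxymethyllysine (CML). They are 10 genes named by symbol, the subunit genes HIF1A, EPAS1 and ARNT and the target genes VEGFA, ADM, NDRG1, CA9, BNIP3, EGLN3 and ANGPTL4, and values of 9 of them, among 17649 genes in all, were analysed (no value of CA9 was analysed here). MDA-MB-231 is an established, estrogen receptor-negative human breast cancer cell line, and CML is an advanced glycation end product, the product of a reaction between sugar breakdown products and the amino acid lysine. RNA-Seq compared 4 control cultures, to which PBS was added, with 4 cultures that received 1 μM CML for 48 hours (NCML in the sample titles), all in low-glucose medium. Both groups are therefore the same cell line in plastic flasks, and CML is the only difference between them that the sources used here describe. The oxygen level of the cultures is not given in those sources. Nothing states that the replicates were grown on different days, so that p-values measure only the spread between these libraries. The study used this experiment to ask whether CML switches on inflammatory signaling through RAGE, the receptor for advanced glycation end products.

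HIF is a pair of proteins, an alpha subunit (encoded by HIF1A or EPAS1) and the stable partner encoded by ARNT. When oxygen is present, prolyl hydroxylases of the EGLN family modify the alpha subunit, the VHL protein then binds it, and it is degraded. In hypoxia the alpha subunit persists, and in the nucleus it binds, together with its partner, short DNA elements of its target genes. Because this control acts on the protein, mRNA levels of the subunits are no measure of HIF activity, whereas CA9, NDRG1, EGLN3, BNIP3, ADM, ANGPTL4 and VEGFA are transcripts long known to accumulate in hypoxic tumor cells.

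The core of the DNA element that HIF binds is read as ACGTG or GCGTG, and the promoter stretches below are shown because they hold this core in target genes of the group. Promoters of 8 of the 10 genes were matched in RefSeq (GRCh38.p14, 250 bases before to 50 after the start of the transcript, with a second start site for HIF1A). VEGFA and NDRG1 had no matched promoter and were not searched, while the promoters of ARNT and EGLN3 were searched and held neither core. Both strands were searched, so that the core may also read CACGT or CACGC on the strand of the gene. ACGTG was found in the promoters of CA9, BNIP3 and ANGPTL4 and in 21.4% of all 35116 promoters of that length, and GCGTG in those of HIF1A (1 of its 2 start sites), EPAS1, ADM and BNIP3 and in 36.5% of all promoters. Each stretch runs 5′ to 3′ on the strand of the gene, with the core in capitals and 10 bases on each side. The stretches lie at chr9:35673900-35673924 (CA9, plus strand, core at position −18 from the start site), chr10:131982043-131982067 (BNIP3, minus strand, −134), chr19:8363911-8363935 (ANGPTL4, plus strand, −234) and chr11:10304962-10304986 (ADM, plus strand, −101). In BNIP3 the core on the other strand overlaps a second ACGTG that starts 1 base later on the strand of the gene.
CA9: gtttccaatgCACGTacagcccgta
BNIP3: gcacgcgccgCACGTgccacacgca
ANGPTL4: aaagaagagtCACGTctcccacggt
ADM: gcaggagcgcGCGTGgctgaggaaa
These matches describe letters in a window, and binding of HIF was not measured.

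The deposited values are CPM, read counts divided by a scaled library size, and estimated reads per library came to between 16161800 and 18954732. The cells carried the transcripts of a mesenchymal breast cancer line, with VIM at 4014 to 4243 CPM and CD44, AXL, MSN and CAV1 all above 100 CPM in every library. The luminal genes PGR and FOXA1 had at most 2 reads per library, CDH1 had 5 to 16 and GATA3 had 56 to 94 (ESR1 was not analysed here), while among blood and endothelial genes PTPRC had 2 to 11 reads, PECAM1 had 38 to 65, and CD68 was at 152 to 181 CPM. Summed over the list, 5 of 5 mesenchymal genes came to 7430 to 7716 CPM in control and 7675 to 7981 CPM in CML libraries, 5 of 6 luminal genes to 12.3 to 14.1 and 10.1 to 12.2 CPM, and 3 of 6 blood and endothelial genes to 163 to 185 and 155 to 176 CPM. Of single markers, CAV1 lay above all control libraries in all CML libraries (151 to 162 against 136 to 149 CPM) and ERBB3 below them (6.22 to 6.70 against 7.12 to 7.51 CPM), neither past the threshold, and their part in the results was not tested. In a limma fit of log2(CPM + 1) over all 17649 genes, 158 genes (0.895%) had an adjusted p under 0.3 and 0 had one under 0.05, with 1352 genes at an unadjusted p under 0.05. The median log2 difference of the 13047 genes that averaged 1 CPM or more was 0.015.

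The cells expressed most of the group, and no hypoxia treatment of the cultures is described. Levels of different genes were compared per length, as CPM per kb of the main transcript, in control cells (± SD, n = 4). VEGFA, which encodes the angiogenic growth factor, was highest at 127 ± 2.81 CPM per kb, above 96.4% of the 12928 genes that averaged 1 CPM or more and had a known transcript length. It was followed by HIF1A at 87.4 ± 4.73, by NDRG1, a stress-responsive gene named for its regulation by N-myc, at 76.6 ± 0.611, and by BNIP3, a mitochondrial protein that drives mitophagy, at 55.6 ± 2.65 CPM per kb. EPAS1, the other alpha subunit, was at 39.5 ± 1.04 CPM per kb. ARNT, the shared partner, was at 11.4 ± 0.575 and ADM, a secreted vasodilator peptide, at 7.31 ± 1.40 CPM per kb.
At the low end, ANGPTL4, a secreted inhibitor of lipoprotein lipase, was at 0.577 ± 0.0599 CPM per kb, a level above 5.18% of the ranked genes. EGLN3, a hydroxylase that is itself a hypoxia target, was at 0.228 ± 0.0611 CPM per kb and rested on 8 to 15 reads per library. The ranges of neighbours in this order did not overlap among the control libraries. In CML-exposed cells the order was the same, again with no overlap between neighbours.

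**Figure D1:**
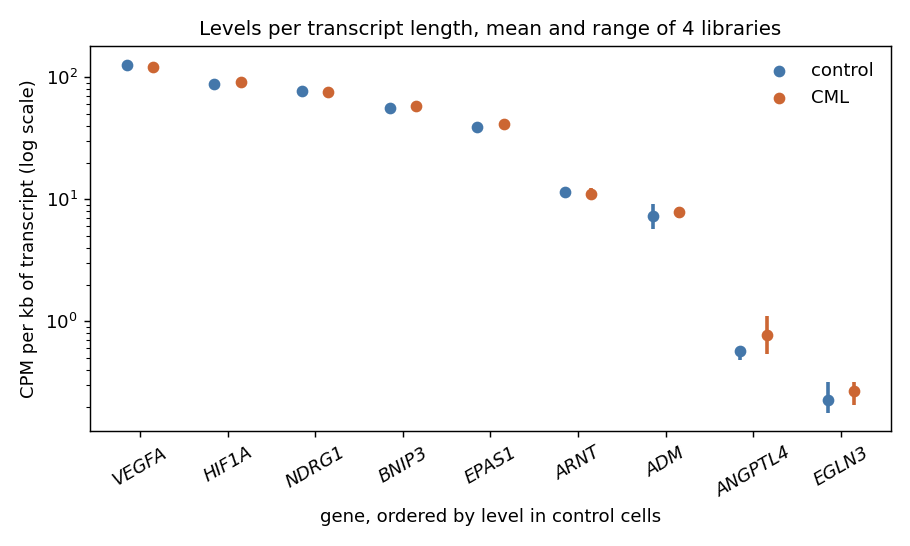
CPM per kb of transcript (log scale) of the 9 genes, with points for group means and bars for the range of 4 libraries, control in blue and CML in orange. From VEGFA at 127 to EGLN3 at 0.228 CPM per kb in control cells, the ranges of neighbouring genes stay apart within each group, with the narrowest step between HIF1A at 87.4 and NDRG1 at 76.6 CPM per kb.

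The comparison of CML-exposed with control cells asked whether any of these transcripts moved with the exposure. None of the 9 genes passed an adjusted p of 0.3 in limma, beside 0.895% of all genes, and 2 of them, VEGFA and EPAS1, had an unadjusted p under 0.05, beside 7.66% of all genes. VEGFA was the only gene of the 9 whose groups did not overlap. Groups did not overlap for 3.78% of all genes and for 4.34% of those that averaged 1 CPM or more, and among the latter all CML libraries lay below all control libraries for 1.30% and above them for 3.04%. An average level in a culture cannot tell fewer expressing cells from less RNA per cell.

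**Figure D2:**
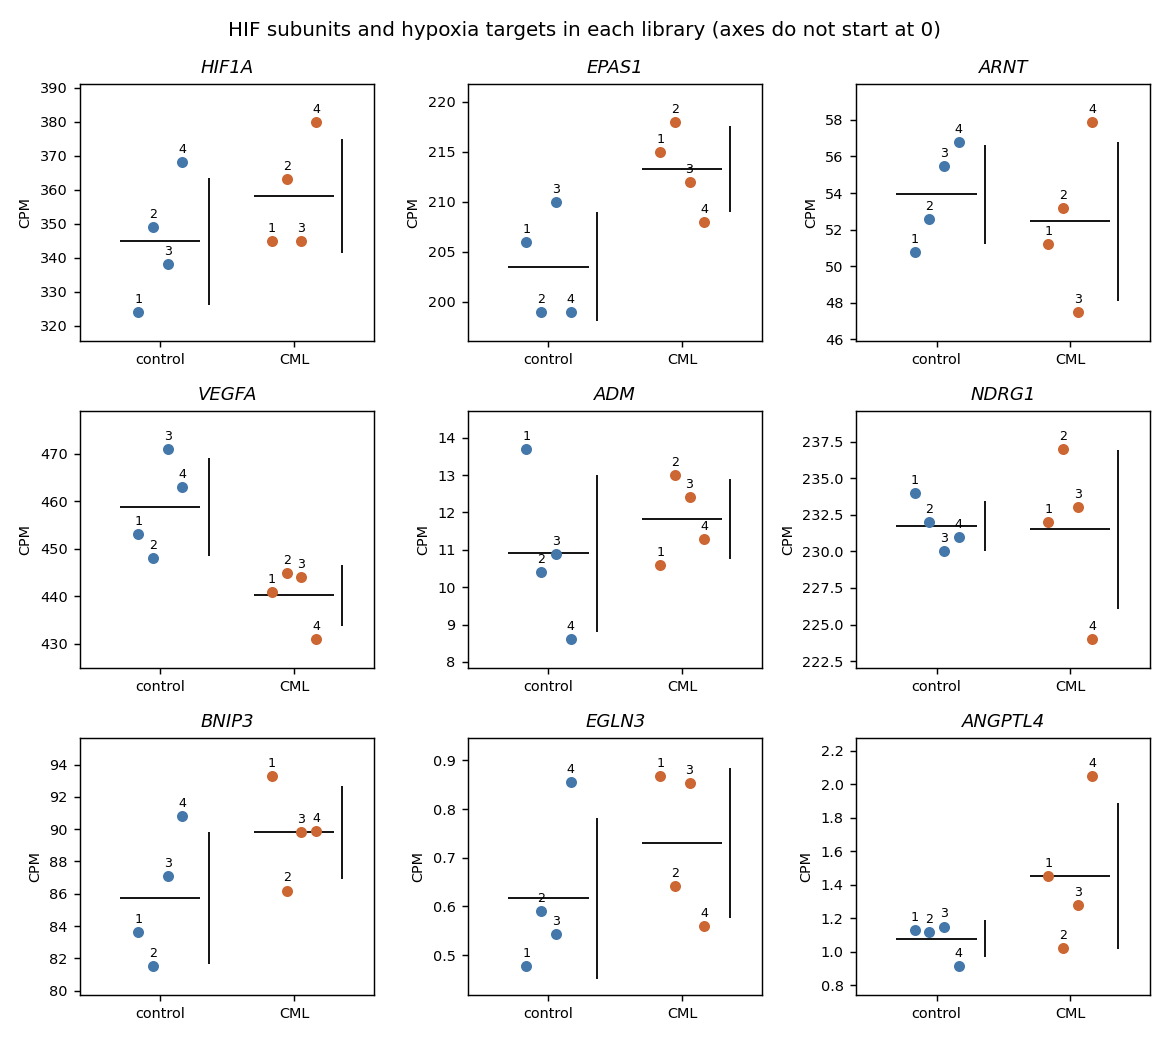
CPM of each gene in each library, control in blue and CML in orange, numbered by replicate, with a horizontal line at the group mean and a vertical line of 1 SD to each side (n = 4). VEGFA is the only panel in which the groups part, with 448 to 471 CPM in control and 431 to 445 CPM in CML libraries, and HIF1A is highest in replicate 4 of both groups.

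HIF1A (ENSG00000100644.17, chromosome 14 of GRCh38.p14, 61695513 to 61748258), the alpha subunit found in nearly all tissues, had 324, 349, 338 and 368 CPM in control replicates 1 to 4 and 345, 363, 345 and 380 CPM in CML replicates 1 to 4. The groups overlapped, and replicate 4 was the highest library of both. The log2 difference, CML minus control, was 0.06 with a 95% interval from −0.06 to 0.17 (adjusted p = 0.897 from limma, exact permutation p = 0.343). It was 0.03 without control replicate 1 or without CML replicate 4 and 0.09 without control replicate 4. With the replicate number as a block it was 0.06 and did not pass (unadjusted p = 0.0150, adjusted p = 0.404, both from limma). The estimated reads of HIF1A were whole in only 2 of the 8 libraries, so its level may depend on how shared reads were divided, which was not tested. Its exons overlap those of the antisense gene HIF1A-AS1, which had 0.0591 to 0.171 CPM. They also overlap those of ENSG00000258964 on the same strand and of HIF1A-AS3 on the opposite strand, for which no values were analysed here. Among the other genes with values, exons of NDRG1 overlap those of ENSG00000289316 on the same strand. Exons of VEGFA overlap those of ENSG00000272114 on the opposite strand, and no values of either overlapping gene were analysed here.
EPAS1 (ENSG00000116016.14, chromosome 2, 46297407 to 46386697), the alpha subunit known from endothelium and kidney tumors, had 206, 199, 210 and 199 CPM in control and 215, 218, 212 and 208 CPM in CML replicates 1 to 4. In CML-exposed cells 3 libraries lay above all control libraries, and CML replicate 4 lay between the control values. The mean was 4.65% above control, a log2 difference of 0.07 with a 95% interval from 0.01 to 0.12, and did not pass (adjusted p = 0.558 from limma, exact permutation p = 0.0571).
ARNT (ENSG00000143437.21, chromosome 1, 150809713 to 150876599) had 50.8, 52.6, 55.5 and 56.8 CPM in control and 51.2, 53.2, 47.5 and 57.9 CPM in CML replicates 1 to 4. CML replicate 3 was the lowest and CML replicate 4 the highest of all libraries, so the CML values enclosed those of the control. The log2 difference was −0.04 with an interval from −0.19 to 0.11 (adjusted p = 0.973 from limma), and it was 0.01 without CML replicate 3.
Per length, HIF1A was at 2.21 ± 0.168 times the level of EPAS1 in control and at 2.20 ± 0.132 times in CML-exposed cells (SD, n = 4; exact permutation p = 0.914). The ratio was highest in replicate 4 of both groups, 2.42 in control and 2.39 in CML, and between 2.05 and 2.28 in the other libraries.

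Among the secreted targets, VEGFA (ENSG00000112715.21, chromosome 6, 43770211 to 43786487) had 453, 448, 471 and 463 CPM in control and 441, 445, 444 and 431 CPM in CML replicates 1 to 4. Every CML library lay below every control library, with a gap between 448 CPM in control replicate 2 and 445 CPM in CML replicate 2. The means were 459 ± 10.1 CPM and 440 ± 6.66 CPM (SD, n = 4), a difference of −4.04%, where 6919 to 8318 reads per library give a counting error of 1.10% to 1.20% of a value. The log2 difference was −0.06 with a 95% interval from −0.11 to −0.01. It did not pass over all genes (adjusted p = 0.514 from limma), and the exact permutation p was 0.0286, the smallest that 4 libraries against 4 allow, for 1 of 9 genes compared.
ADM (ENSG00000148926.10, chromosome 11, 10305073 to 10307397) had 13.7, 10.4, 10.9 and 8.61 CPM in control and 10.6, 13.0, 12.4 and 11.3 CPM in CML replicates 1 to 4. Both the highest and the lowest library were controls. With 151 to 243 reads per library, counting error alone was 6.42% to 8.14% of a value, and the interval of the log2 difference of 0.12 ran from −0.19 to 0.43 (adjusted p = 0.928 from limma). The difference was 0.22 without control replicate 1 and 0.02 without control replicate 4.
ANGPTL4 (ENSG00000167772.12, chromosome 19, 8364155 to 8374370) had 1.13, 1.12, 1.15 and 0.912 CPM in control and 1.45, 1.02, 1.28 and 2.05 CPM in CML replicates 1 to 4. CML replicates 1, 3 and 4 lay above all control libraries, while CML replicate 2 lay below 3 of them. At 16 to 33 reads per library the counting error was 17.4% to 25.0% of a value, and the log2 difference of 0.22 had an interval from −0.07 to 0.51 (adjusted p = 0.772 from limma, exact permutation p = 0.114). Without CML replicate 4 it was 0.11.

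NDRG1 (ENSG00000104419.14, chromosome 8, 133237175 to 133297252) had the smallest spread of the 8 genes above 1 CPM, with an SD within groups of 0.0257 on the log2 scale. It had 234, 232, 230 and 231 CPM in control and 232, 237, 233 and 224 CPM in CML replicates 1 to 4, and CML replicates 2 and 4 were the highest and lowest libraries. The means differed by −0.164% and the 95% interval of the log2 difference ran from −0.05 to 0.04, or from −3.15% to 2.88% on the scale of CPM + 1. Its sign turned with single libraries, to 0.01 without CML replicate 4 and to 0.00245 without control replicate 1.
BNIP3 (ENSG00000176171.11, chromosome 10, 131967684 to 131981923) had 83.6, 81.5, 87.1 and 90.8 CPM in control and 93.3, 86.2, 89.8 and 89.9 CPM in CML replicates 1 to 4. The groups overlapped, since control replicate 4 exceeded 3 of the CML libraries. The log2 difference was 0.07 with an interval from −0.03 to 0.16 (adjusted p = 0.796 from limma). Estimated reads of BNIP3 were whole in 3 of 8 libraries, so its level may depend on how shared reads were divided, which was not tested.
EGLN3 (ENSG00000129521.13, chromosome 14, 33924227 to 33951074) had 0.477, 0.591, 0.544 and 0.855 CPM in control and 0.868, 0.642, 0.853 and 0.560 CPM in CML replicates 1 to 4. These values stand for so few reads that counting error was 25.8% to 35.4% of each, and no difference was detectable at this depth (log2 difference 0.10, interval from −0.11 to 0.31, adjusted p = 0.897 from limma).

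**Figure D3:**
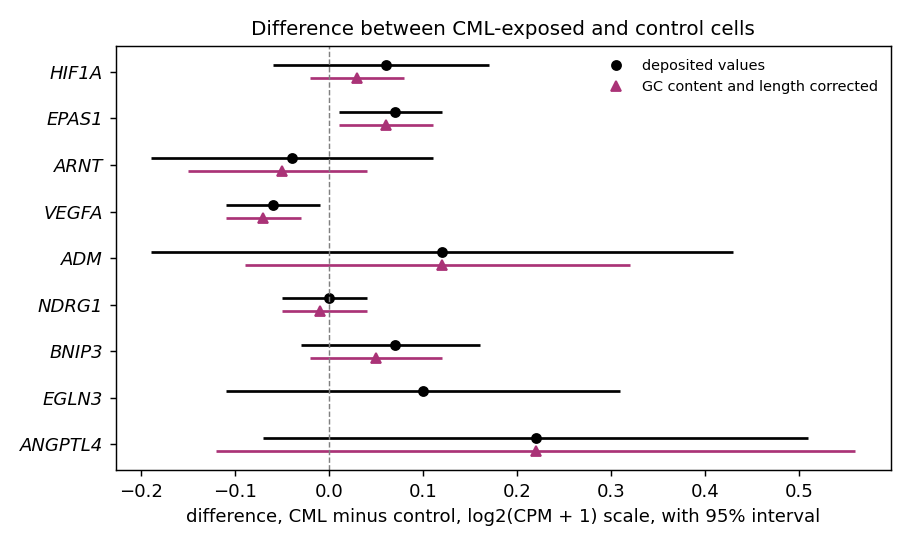
Difference between CML-exposed and control cells for each gene on the log2(CPM + 1) scale, with its 95% interval from limma, for the deposited values (black circles) and after each library was corrected for transcript GC content and length (purple triangles, 8 genes that averaged 1 CPM or more). The intervals of VEGFA and EPAS1 leave out 0 in both, VEGFA below at −0.06 and EPAS1 above at 0.07 in the deposited values.

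The transcripts of the group range in GC content from 39.4% for HIF1A to 63.3% for ANGPTL4. When a trend of expression with these contents and with transcript length was taken out of each library, the SD within groups on the log2 scale moved from 0.0725 to 0.0338 for HIF1A and from 0.0273 to 0.0124 for VEGFA. It was smaller than before for 7 of the 8 corrected genes, by little for BNIP3 (0.0580 before), and larger for ANGPTL4 (0.186 before and 0.231 after). VEGFA then differed by −0.07 with an interval from −0.11 to −0.03 and passed (adjusted p = 0.102 from limma). It was the only one of the 8 corrected genes to do so, where 6.38% of the 12928 genes passed and 2.34% were called lower with CML. EPAS1 was at 0.06 with an adjusted p of 0.320 from limma, and its groups no longer overlapped (exact permutation p = 0.0286), as for 6.99% of the corrected genes, with CML above control for 4.37% and below it for 2.62%. HIF1A differed by 0.03 with an interval from −0.02 to 0.08 (adjusted p = 0.655 from limma).

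Of 17 genes for hydroxylases, the VHL ligase, coactivators and other partners, 16 had values and 0 passed in limma (1 with an unadjusted p under 0.05, beside 7.66% of all genes). Their median log2 difference was −0.003, and the differences ran from −0.12 to 0.06. The gene with the smallest p was LIMD1, a scaffold that brings hydroxylase and VHL together, with 62.4 to 67.1 CPM in control and 57.8 to 63.4 CPM in CML-exposed cells (log2 difference −0.10, adjusted p = 0.626 from limma), and it passed where the GC and length correction was joined with the replicate block (0.280). In that setting 859 of the genes fitted passed, against 158 in the main fit. SIAH2, a ubiquitin ligase for hydroxylases, was at 0.06 and P4HTM, a hydroxylase of the endoplasmic reticulum, at −0.12, both overlapping between the groups. Without CML replicate 4 SIAH2 was at 0.03, and P4HTM was at −0.04 without control replicate 1 and at −0.19 without control replicate 4.

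The partners of the secreted targets were also examined. Of 8 VEGF ligands and receptors other than VEGFA, 0 passed in limma, and 1 had an unadjusted p under 0.05, beside 7.66% of all genes. That gene was FLT1, a VEGF receptor, which had 0.118 to 0.605 CPM in control and 0.0579 to 0.244 CPM in CML libraries, or 1 to 10 reads. PGF, a VEGFA relative that binds FLT1, had 3.25 to 4.73 CPM in control and 3.76 to 5.79 CPM in CML-exposed cells (log2 difference 0.27, interval from −0.06 to 0.59). The coreceptor NRP2 was at −0.10 with an interval from −0.26 to 0.06, and at −0.04 without CML replicate 3. Of 5 receptor genes for adrenomedullin 4 had values, of which RAMP2 and ACKR3 were listed at 0 in every library, CALCRL had 1 to 4 reads per library and RAMP1 had 19 to 36, and 0 passed in limma with 0 at an unadjusted p under 0.05.

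Of 8 paralogs of the group 7 had values and 0 passed in limma, with 1 at an unadjusted p under 0.05, beside 7.66% of all genes. That gene, CA12, a membrane carbonic anhydrase of the same family as CA9, had 19.2, 18.4, 18.7 and 21.0 CPM in control and 22.8, 21.1, 21.9 and 22.8 CPM in CML replicates 1 to 4. The groups did not overlap by a narrow margin between control replicate 4 and CML replicate 2. All CML libraries lay above all control libraries for 3.04% of the genes that averaged 1 CPM or more. The log2 difference of CA12, 0.19, did not pass (interval 0.07 to 0.30, adjusted p = 0.381 from limma). CA12 passed after the GC and length correction (adjusted p = 0.181 from limma), as did 6.38% of the corrected genes. It also passed without control replicate 4 (0.158), where 690 genes passed, against 158 in the main fit. BNIP3L, the relative of BNIP3 in mitophagy, and NDRG3 had log2 differences of 0.04 and 0.03, and both overlapped between the groups, though BNIP3L passed without control replicate 4 (adjusted p = 0.298 from limma).

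Of 39 other nonglycolytic hypoxia targets, 38 had values. In limma 2 passed, both higher with CML, beside 0.895% of all genes in either direction. An unadjusted p under 0.05 was found for 8, beside 7.66% of all genes. Every CML library lay above every control library for 4 of the targets and below for 1. Groups did not overlap for 3.78% of all genes. The median log2 difference of the 37 targets that averaged 1 CPM or more was 0.018, beside 0.015 for the 13047 genes above the same level. EDN1, which encodes the vasoconstrictor endothelin, rose from 15.9, 16.8, 15.9 and 16.6 CPM to 21.5, 19.6, 18.4 and 20.7 CPM in replicates 1 to 4, a log2 difference of 0.28 with an interval from 0.16 to 0.40 (adjusted p = 0.194 from limma). BHLHE40, a transcriptional repressor of the circadian clock, rose from 127, 125, 127 and 127 CPM to 140, 134, 133 and 133 CPM (log2 difference 0.09, adjusted p = 0.228 from limma). With each library left out in turn, EDN1 passed only without control replicate 4 and without CML replicate 3 and reached an adjusted p of up to 0.440, and BHLHE40 passed only without control replicate 4 and without CML replicate 1 and reached up to 0.453, both without CML replicate 2. Centring libraries on their median also ended both calls (adjusted p = 0.329 and 0.531 from limma), as did the replicate block (0.326 and 0.323), and quantile normalization and the filter at 1 CPM ended that of BHLHE40 (0.482 and 0.559). The lists were compiled with these results known, so the pair is no independent evidence of a direction. TFRC, the transferrin receptor, had 497 to 544 CPM in control and 559 to 596 CPM in CML-exposed cells without passing (log2 difference 0.14, adjusted p = 0.364 from limma). It passed after the GC and length correction (adjusted p = 0.00155 from limma), with the filter at 1 CPM (0.169), with the replicate block (0.245) and without control replicate 4 (0.172). In these settings 825, 141, 189 and 690 of the genes fitted passed, in that order, against 158 in the main fit.

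Of 21 glycolytic hypoxia targets 0 passed in limma and 4 had an unadjusted p under 0.05, beside 7.66% of all genes. All 4 had every CML library above every control library, as did 3.04% of the genes that averaged 1 CPM or more. LDHA, the lactate dehydrogenase subunit induced by hypoxia, was at 510 to 542 CPM in control and 546 to 573 CPM in CML-exposed cells (log2 difference 0.10, adjusted p = 0.387 from limma). PGAM1 and HK2, which act in glycolysis as mutase and hexokinase, were at log2 differences of 0.06 and 0.10. LDHA passed after the GC and length correction (adjusted p = 0.0307 from limma), with the replicate block (0.263) and without control replicate 4 (0.158). Control replicate 4 held the highest control value of LDHA, 542 CPM, with 510 to 513 CPM in the other control libraries. HK2 passed after the correction (adjusted p = 0.159 from limma) and without control replicate 4 (0.270). Over all genes fitted, 825 passed after the correction, 189 with the block and 690 without control replicate 4, against 158 in the main fit. The median of the list was 0.058 with 18 of 21 genes above 0, where 58.8% of all 13047 genes were. ANGPTL4 is also a target of the lipid-sensing PPAR receptors, and of 6 other PPAR targets with values 0 passed in limma. Beside 7.66% of all genes, 1 of these targets had an unadjusted p under 0.05. This was PDK4, an inhibitor of pyruvate oxidation, at 1.67 to 1.99 CPM in control and 1.12 to 1.68 CPM in CML-exposed cells (log2 difference −0.25, adjusted p = 0.489 from limma), the opposite sign from ANGPTL4. CPT1A and HADHA, enzymes of fatty acid oxidation, were at 0.05 and 0.04, and CPT1A passed without CML replicate 4 (adjusted p = 0.278 from limma). Without that library 105 genes passed, against 158 in the main fit.

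**Figure D4:**
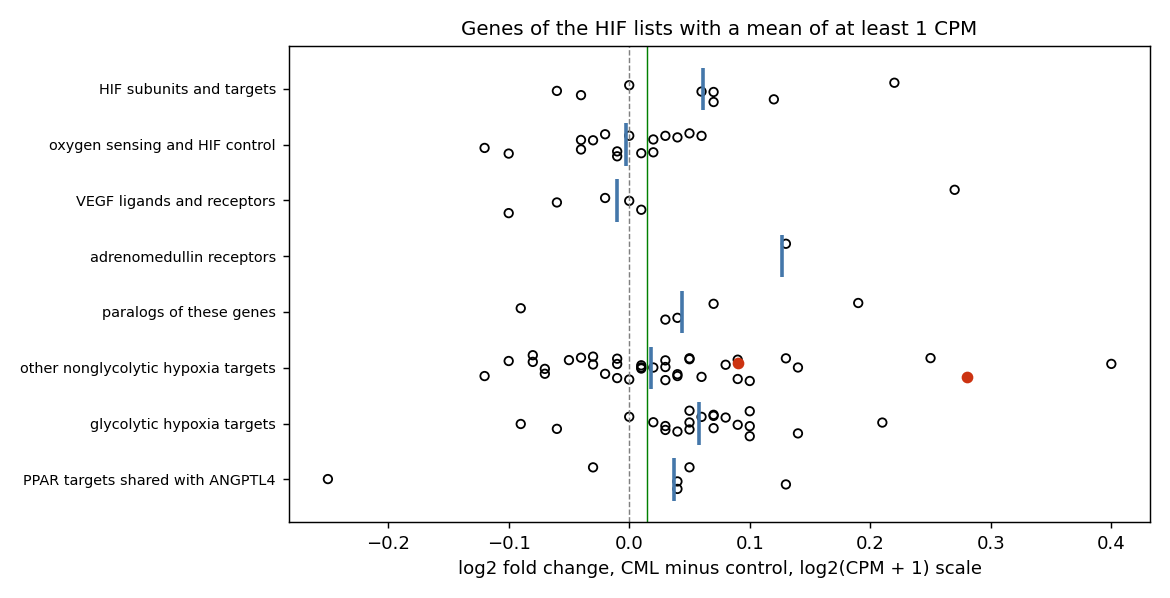
Log2 differences, CML minus control, of genes that averaged 1 CPM or more in each list, 1 circle a gene, filled red where limma's adjusted p was under 0.3, with a blue bar at the list's median and a green line at the median of all 13047 genes above that level (0.015). The filled circles are EDN1 at 0.28 and BHLHE40 at 0.09, and the open circles of the lists run from −0.25 to 0.40.

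Genes whose pattern over the 8 libraries was most like that of HIF1A, by Pearson's r of log2(CPM + 1) among 13047 genes, were RANBP2 (r = 0.99), RAB6A and MEX3C (both r = 0.98). They share the high value in replicate 4 of both groups, as RANBP2 did with 182 CPM in control and 187 CPM in CML replicate 4 against 158 to 176 CPM elsewhere, and the GC contents of the RANBP2, RAB6A and MEX3C transcripts are 39.2%, 40.8% and 48.9% beside 39.4% for HIF1A. For VEGFA the most similar genes were CHST3, ATP6V0A1 and RGP1 (all r = 0.97), with GC contents of 57.1%, 51.4% and 52.9% beside 51.3% for VEGFA. With 8 libraries and so many genes, values of this size are a description of the libraries only.

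Whether the 9 genes were high in the same libraries was examined in 36 pairs. The median Pearson's r was 0.02, and 18 of 36 pairs were positive. The only pair with an exact permutation p under 0.05 was VEGFA with ANGPTL4, which ran in opposite directions over the 8 libraries (r = −0.74, exact permutation p = 0.0382, adjusted 0.674; Spearman's rho = −0.67, exact permutation p = 0.0831, adjusted 0.748), with r = −0.90 without the 2 libraries farthest from the median of VEGFA and −0.57 for deviations from the group means. BNIP3 and EGLN3 were the most alike (r = 0.72, exact permutation p = 0.0506, adjusted 0.674; rho = 0.67, exact permutation p = 0.0831, adjusted 0.748), with r = 0.69 without the 2 farthest libraries. For HIF1A and EPAS1 no relation was detected over the 8 libraries (r = −0.06, exact permutation p = 0.875, adjusted 0.875; rho = −0.17, exact permutation p = 0.703, adjusted 0.873), with r = −0.21 without the 2 farthest libraries and −0.60 for deviations from the group means. No pair passed an adjusted p of 0.05.

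**Figure D5:**
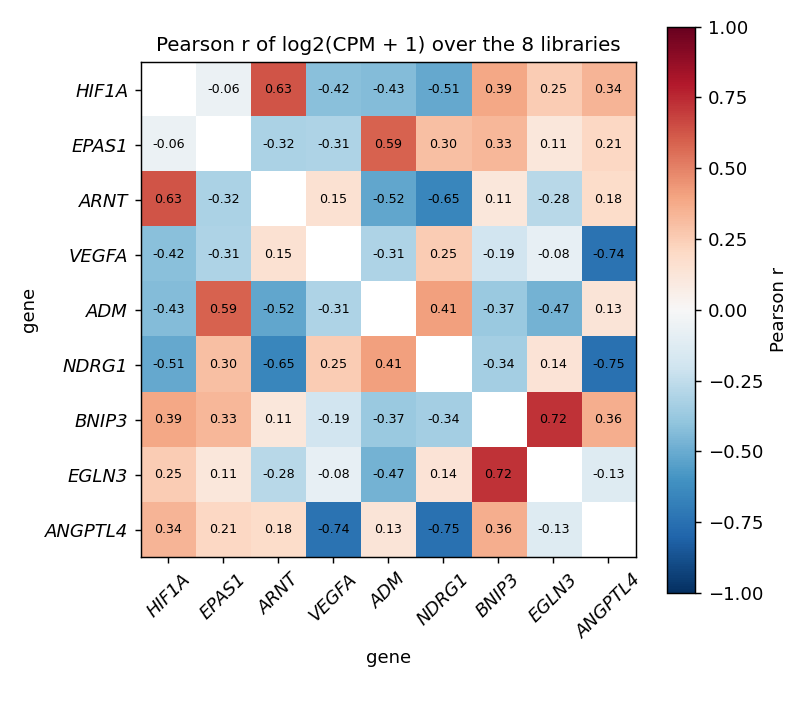
Pearson's r of log2(CPM + 1) over the 8 libraries for each pair of the 9 genes, from −1 (blue) to 1 (red). Positive and negative squares are mixed among the targets, from −0.75 for NDRG1 with ANGPTL4 to 0.72 for BNIP3 with EGLN3. The former was 0.27 without the 2 libraries farthest from the median of NDRG1 (Spearman's rho = −0.43 over all 8). EGLN3 rests on 8 to 15 reads per library and ANGPTL4 on 16 to 33.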

How the data were processed

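RNA-Seq of 8 libraries, 4 control and 4 CML, was analysed from a table of CPM values deposited by the authors. The submitters' processing notes name edgeR and hg38, and the methods of the study describe CPM scaled by TMM factors and use such values for tumors, xenografts and cell lines. Aligner, counting tool and annotation release for this experiment are not given in the sources used here. Columns summed to 986730 to 1014124. Values were read as the last 8 cells of each row, because data rows hold an empty cell that the header lacks. Dividing by the CPM value of 1 read (0.0535 to 0.0622) gave whole reads, within 0.01, for 84.5% to 85.6% of values above 0, so counts were estimates and no count test was run. Counting errors from these reads cover counting only.

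Rows sharing a symbol were averaged (17681 rows, 17649 genes), and log2(CPM + 1), which understates changes of low genes, was fitted in R 4.3.3 by limma 3.58.1 (variance trend on). P-values were adjusted over all genes by the Benjamini-Hochberg method and read at 0.3 and 0.05. For single values, the exact permutation test was 2-sided and used all 70 labellings (Python 3.11.15). Length and GC content came from GENCODE 44 transcripts, places and promoters from RefSeq, GRCh38.p14. The fit was also run on simulated data, with independent noise for each gene and planted changes larger than the differences of the group. That run does not show how well the fit finds differences as small as those reported for the group.

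All 10 genes of the group were named, with, from every other list, the genes past 0.3 and the 3 with the smallest p, every marker, and the 3 genes most like HIF1A and most like the gene with the smallest p. Members and lists were chosen with earlier results of these data known. The fit was repeated with genes averaging 1 CPM or more, a pseudocount of 0.1, separate rows, median centring, quantile normalization, no trend, the replicate number as a block, GC and length correction with and without the block, and without each library.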

Additional observations from a re-analysis of the deposited data

Results flagged for a closer look

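Among 60 groups of 4 libraries, 6 held a highest or lowest library farther from its neighbour than Dixon's critical value at the 95% level, where chance gives about 3.00. ANGPTL4 was at 0.912 CPM in control replicate 4 and at 1.12 to 1.15 CPM in the other control libraries. SIAH2 was at 34.2 CPM in CML replicate 4, with 30.7 to 31.1 CPM in the others, and TFRC at 596 CPM in CML replicate 4, with 559 to 563 CPM in the others. LDHA was at 542 CPM in control replicate 4 and at 510 to 513 CPM in the other control libraries. NRP2 was at 12.5 CPM in CML replicate 3, with 14.6 to 14.9 CPM in the others. CALCRL was at 0.214 CPM in CML replicate 2 and at 0.0579 to 0.0622 CPM in the others, that is 4 reads against 1. Of the 6 values 4 came from replicate 4 of either group.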

How the results depend on the processing

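The number of genes past an adjusted p of 0.3 was 158, and it was 73 with libraries centred on their median, 825 with GC content and length corrected, 859 with that correction and the replicate block, and between 20 (without CML replicate 2) and 690 (without control replicate 4) with libraries left out. Of the 9 HIF genes 0 passed in every setting but the GC and length correction, where 1 passed with and without the block, namely VEGFA at −0.07 (adjusted p = 0.120 with the block). Of the genes in the other lists 2 passed, against 0 after median centring, 1 after quantile normalization, 13 and 14 after the GC and length correction without and with the block, and 0 to 8 with libraries left out. Over all alternatives the adjusted p of VEGFA lay between 0.102 and 0.757 and its log2 difference between −0.08 and −0.05. The sign turned for ARNT (0.01 without CML replicate 3, in a range from −0.09 to 0.01 with libraries left out) and NDRG1 (0.01 without CML replicate 4 and 0.00245 without control replicate 1, in a range from −0.01 to 0.01), and for no other of the 9 genes under any alternative. The cause of these moves was not tested.

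Same-numbered libraries had correlations of deviations from −0.0645 to 0.334. Differently numbered libraries were not compared in this way, so whether replicate numbers pair the libraries was not tested. The replicate block alone gave 189 genes, 0 of the HIF genes and 2 of the other lists (TFRC and LDHA), and EDN1 and BHLHE40 then had adjusted p of 0.326 and 0.323. Depth limits EGLN3 and ANGPTL4, which rest on 8 to 33 reads per library.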
